A study of Mus musculus with 3 samples.

Results

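Zinc transporters and metallothioneins were followed through mRNA profiles of mouse pancreatic islets. The set has 10 genes, taken by symbol: the ZnT exporters Slc30a8, Slc30a1, Slc30a5 and Slc30a7, the ZIP importers Slc39a4, Slc39a6, Slc39a7 and Slc39a14, and the metallothioneins Mt1 and Mt2. All 10 were found among the 24119 genes of the deposited tables. Islets were isolated from male C57BL/6 mice, and each of 3 groups gave 1 library. The ND group ate the diet labelled ND and was gavaged with DMSO, the HFD_DMSO group ate a high-fat diet and was gavaged with DMSO, and the HFD_CGP group ate a high-fat diet and was gavaged with CGP 57380, an inhibitor of the MNK kinases that phosphorylate the translation factor eIF4E. Gavage lasted 1 month in all groups. The protocol also gives 4 months without saying whether this is an age or a time on diet, and the number of animals behind each library is not stated.

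Zinc is packed with insulin in the secretory granules of the beta cell, where it holds insulin in crystalline hexamers. ZnT proteins (gene family Slc30a) move zinc out of the cytosol into organelles or out of the cell, ZIP proteins (Slc39a) move it into the cytosol, and metallothioneins are small cysteine-rich proteins that bind it there. The transcription factor MTF1 senses free zinc and switches on metallothionein genes and Slc30a1 through metal response elements in their promoters.

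Reads assigned to genes numbered 17129042 for ND, 16297644 for HFD_DMSO and 17623816 for HFD_CGP. Levels are given as reads and as CPM, the usual scaling of reads to the size of the library. Levels of different genes were ranked only as CPM per kb of exon. Ratios of reads between genes are not scaled for length and serve only to compare libraries. The 2 insulin genes took 15.3%, 43.5% and 19.1% of the reads in the same order. With 1 library per group there is no replicate error: the 95% intervals cover counting error only, and a test compares 2 libraries, not the diets or the treatments. The words rose and fell are kept for genes with an adjusted p under 0.05 in the authors' deposited table. In islets, fewer cells of a type and less RNA per cell cannot be told apart. The islet identity of the libraries was checked with markers: without insulin, 8 further beta-cell genes summed to 39779, 19683 and 34369 CPM, and 5 alpha-cell genes to 24532, 4284 and 12359 CPM, with none at 0. Markers of other cells were present too. Acinar genes summed to 13594, 3361 and 162 CPM, duct genes to 381, 583 and 478 CPM, and stellate cell and fibroblast genes to 18.4, 325 and 101 CPM. Single genes weighed heavily in some sums. Iapp gave 32472, 17079 and 28808 CPM of the beta-cell sums, and Gcg 21805, 2855 and 10421 CPM of the alpha-cell sums. Krt7 gave 335, 265 and 410 CPM of the duct sums and passed in no comparison. The other 5 duct genes rose in HFD_DMSO vs ND and fell in HFD_CGP vs HFD_DMSO.

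In ND islets the 2 most abundant transcripts of the set, per kb, were Slc30a8 at 796 CPM per kb and Mt1 at 416 CPM per kb. The other 8 genes lay at 18.2 CPM per kb or below. Slc30a5 (18.2), Slc39a6 (9.16), Slc30a7 (7.87) and Slc39a7 (7.27) came next in CPM per kb, and the counting intervals of Slc30a7 and Slc39a7 overlapped. Slc39a14 (2.26) and Mt2 (1.99) could not be told apart, nor could Slc30a1 (0.0668) and Slc39a4 (0.0188). In HFD_DMSO and in HFD_CGP the first places were exchanged: Mt1 stood at 244 and 465 CPM per kb, above Slc30a8 at 153 and 322. Slc39a4, last in ND, reached 2.29 CPM per kb in HFD_DMSO, where its interval overlapped those of Slc30a7, Slc39a7 and Mt2.

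**Figure D1:**
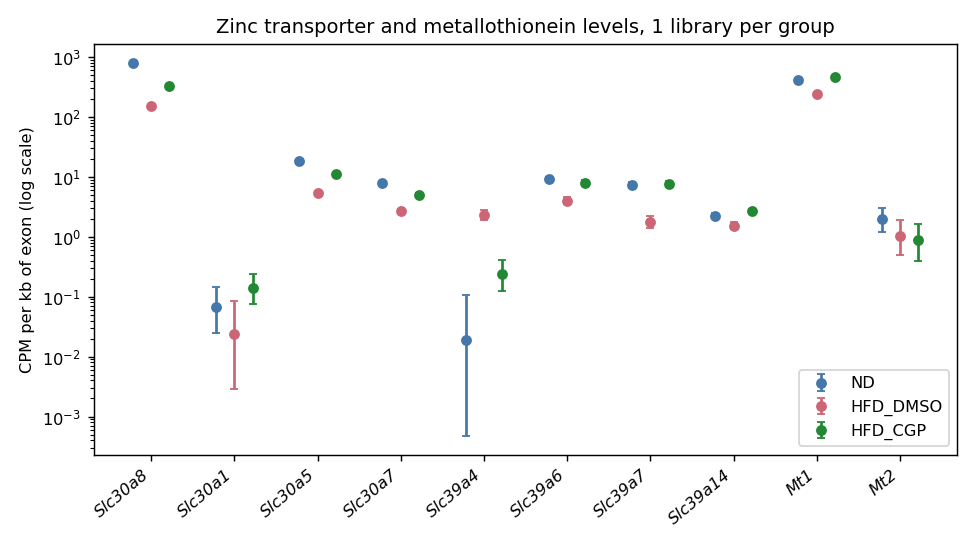
Level of each of the 10 genes in the ND, HFD_DMSO and HFD_CGP libraries, in CPM per kb of exon on a log axis, with bars for the 95% counting interval. Slc30a8 and Mt1 lie far above the other 8 genes in all 3 libraries, and Slc39a4 moves from 0.0188 in ND to 2.29 in HFD_DMSO and 0.237 in HFD_CGP.

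HFD_DMSO was first compared with ND, for the effect of the high-fat diet (the diet comparison). Of the 10 genes, the zinc importer Slc39a4 rose, the exporters Slc30a8 and Slc30a5 and the importer Slc39a7 fell, and the other 6 did not pass the test. Over all 22899 genes tested, 12.6% were called higher and 13.2% lower in HFD_DMSO than in ND. The median log2 fold change of the 10 genes was -0.79, beside -0.12 for all genes tested. A scaling by library totals instead of by TMM factors would move all log2 fold changes of this pair by 0.54 downwards, those of HFD_CGP against HFD_DMSO (the inhibitor comparison) by 0.65 upwards, and those of HFD_CGP against ND by 0.025 upwards. Directions below are relative to the TMM scaling. With library totals Slc30a7 and Slc39a6 were called lower too in the diet comparison. The edgeR test that gave the deposited values again assumes a coefficient of variation of 0.2 between libraries. When 0.4 was assumed instead, the Slc39a4 calls of the diet and inhibitor comparisons held. Slc30a8, Slc30a5 and Slc39a7 then no longer passed in any comparison.

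Slc30a8 (ENSMUSG00000022315, chromosome 15, 52295553 to 52335798, plus strand) encodes ZnT8, which loads zinc into insulin granules. It had 26876 reads (1569 CPM) in ND, 4908 reads (301 CPM) in HFD_DMSO and 11190 reads (635 CPM) in HFD_CGP. The ND library was highest, the HFD_DMSO library lowest, and the HFD_CGP library lay between them. The log2 fold change of HFD_DMSO over ND was -1.84 (95% counting interval -1.89 to -1.80), with an adjusted p of 0.000222 in the authors' deposited table. Against HFD_DMSO the HFD_CGP library stood at 0.42 (0.38 to 0.47) on the log2 scale, which did not pass with an adjusted p of 0.704 in the authors' deposited table. Slc30a8 was also lower in HFD_CGP than in ND, at -1.33 (-1.36 to -1.30) and an adjusted p of 0.0236 in the authors' deposited table.

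The cargo of the same granules moved the other way. Ins1 and Ins2 together gave 97.6 reads per Slc30a8 read in ND, 1444 in HFD_DMSO and 301 in HFD_CGP. When insulin reads were left out of the library totals, Slc30a8 stood at 1853, 533 and 785 CPM, so it was still lowest in HFD_DMSO without the insulin share. Of the 8 beta-cell markers other than insulin, 3 also fell in HFD_DMSO vs ND (the glucose transporter gene Slc2a2, the phosphatase gene G6pc2 and the incretin receptor gene Glp1r) and 5 did not pass, among them Iapp at -0.39 and Nkx6-1 at 0.15 on the log2 scale. Of the 5 alpha-cell markers, 3 fell. Alpha cells are known to express Slc30a8 as well, and the part of cell make-up in the Slc30a8 value was not tested. Within the Slc30a family, Slc30a8 made up 94.3%, 89.8% and 90.7% of the summed CPM per kb of the 8 members in the tables.

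Slc30a5 and Slc30a7 encode ZnT5 and ZnT7, which supply zinc to the early secretory pathway. Slc30a5 (ENSMUSG00000021629, chromosome 13, 100802648 to 100833427, minus strand) had 2272 reads in ND, 643 in HFD_DMSO and 1417 in HFD_CGP. Its order of libraries was that of Slc30a8. It fell by 1.21 on the log2 scale in HFD_DMSO vs ND (-1.34 to -1.08), with an adjusted p of 0.0209 in the authors' deposited table. Slc30a7 (ENSMUSG00000054414, chromosome 3, 115938973 to 116007406, minus strand) had 1498, 481 and 991 reads in the same order of groups. Its log2 fold change of -1.03 (-1.18 to -0.88) missed the threshold, with an adjusted p of 0.0553 in the authors' deposited table. It passed when genes needed at least 20 reads over the pair, with an adjusted p of 0.0429 from edgeR's exact test. Neither gene passed in the inhibitor comparison, at 0.37 and 0.28 on the log2 scale, or between HFD_CGP and ND, at -0.75 and -0.66.

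Slc30a1 (ENSMUSG00000037434, chromosome 1, 191906767 to 191913247, plus strand) encodes the zinc exporter of the plasma membrane and is a known MTF1 target. The ND, HFD_DMSO and HFD_CGP libraries held 6, 2 and 13 reads of it. A difference was not detectable at this depth: the counting interval of HFD_DMSO over ND ran from -4.32 to 1.51 on the log2 scale, and that of HFD_CGP over HFD_DMSO from -0.21 to 5.13.

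Genes of low GC content were lower, and genes of high GC content higher, in HFD_DMSO than in ND. The medians were taken over 11253 genes with at least 100 normalized counts in a library of that pair. Over 10 bins of transcript GC content the median log2 fold change went from -1.12 in the lowest bin to 0.88 in the highest. In HFD_CGP vs ND it went from -0.81 to 0.90, and in HFD_CGP vs HFD_DMSO from 0.20 to -0.075. Slc30a8 has 45.3% GC, in a bin with a median of -0.76 in the diet comparison. Slc30a5 (42.1%) and Slc30a7 (43.3%) share a bin with a median of -0.94 there. After a correction for GC content the log2 fold change of Slc30a8 in that comparison was -1.09, with an adjusted p of 0.0429 from edgeR's likelihood-ratio test. This test calls more genes: without the correction it called 3423 higher and 3421 lower, against 2888 and 3023 in the authors' deposited table. Slc30a5 came to -0.27 and no longer passed (adjusted p = 0.674, the same edgeR test), and Slc30a7 came to -0.08. The fall of Slc30a8 in HFD_CGP vs ND was lost as well, at -0.87 and an adjusted p of 0.209 from the edgeR likelihood-ratio test.

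**Figure D2:**
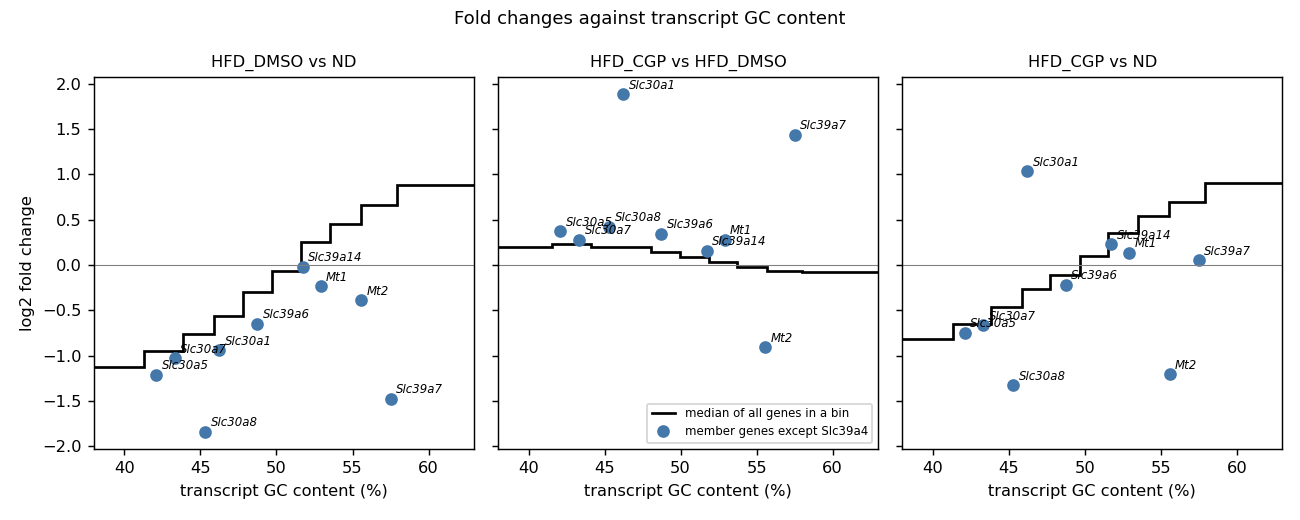
Log2 fold change of each pair of libraries against transcript GC content in percent. The line is the median of genes with at least 100 normalized counts in each of 10 GC bins. The points are the genes of the set except Slc39a4. In the diet comparison the line climbs from -1.12 to 0.88, Slc30a8 (-1.84) lies below it and Slc39a7 (-1.48) lies below a bin at 0.67.

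Slc39a4 had the largest change of the set. The gene (ENSMUSG00000063354, chromosome 15, 76612383 to 76617384, minus strand) encodes ZIP4, known for zinc uptake in the gut. It had 1 read (0.0584 CPM) in ND, 116 reads (7.12 CPM) in HFD_DMSO and 13 reads (0.738 CPM) in HFD_CGP. The transcript was thus close to the limit of detection in ND, since a count of 0 already allows 3 reads or 0.175 CPM there. The ratio of HFD_DMSO to ND was 177, with a counting interval of 31.2 to 7055 that shows how loosely 1 read fixes it. The rise had an adjusted p of 4.34e-15 in the authors' deposited table. In HFD_CGP vs HFD_DMSO Slc39a4 fell by 3.91 on the log2 scale (-4.87 to -3.09), with an adjusted p of 3.81e-09 in the authors' deposited table. The comparison of 13 reads in HFD_CGP with 1 read in ND did not pass, with an adjusted p of 0.0551 in the authors' deposited table, and passed in edgeR's likelihood-ratio test (adjusted p = 0.0259).

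Among the 14 Slc39a genes in the tables, Slc39a4 held 0.0246% of the summed CPM per kb in ND, 5.44% in HFD_DMSO and 0.291% in HFD_CGP. Markers of non-endocrine cells differed in direction. Of the 6 stellate cell and fibroblast markers, 6 rose in the diet comparison and 6 fell in the inhibitor comparison, and 6 were still higher in HFD_CGP than in ND. Of the 6 duct markers, 5 rose and 5 fell in these comparisons. Of the 10 acinar markers, 7 fell in the diet comparison and 9 in the inhibitor comparison. Endothelial (1 of 4), macrophage (2 of 4) and adipocyte (1 of 1 tested) markers rose in the diet comparison. The adipocyte marker Adipoq, with 0 reads in ND and 1 in HFD_DMSO, was not tested there. Of the markers of these 3 cell types, 0 fell in the inhibitor comparison. Of 4 lymphocyte markers, 3 rose and 1 fell with diet, and 1 fell with the inhibitor. The part of any of these cells in the Slc39a4 result was not tested.

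**Figure D3:**
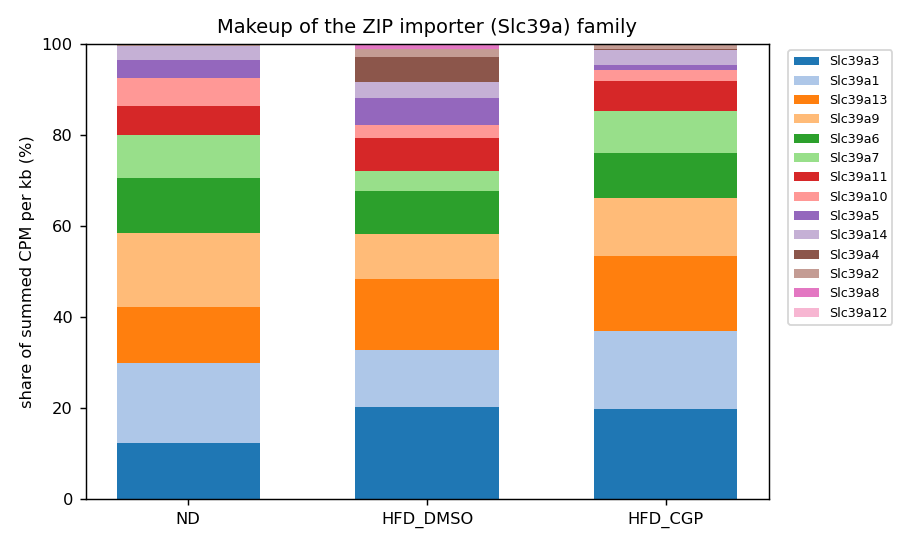
Share of each Slc39a gene in the summed CPM per kb of the 14 family members, in percent, for the ND, HFD_DMSO and HFD_CGP libraries. Slc39a4 takes 0.0246%, 5.44% and 0.291%, and Slc39a7 takes 9.52%, 4.27% and 9.37%.

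Slc39a7 (ENSMUSG00000024327, chromosome 17, 34028267 to 34031690, minus strand) encodes ZIP7, which releases zinc from the endoplasmic reticulum. It had 323 reads (18.9 CPM) in ND, 76 reads (4.66 CPM) in HFD_DMSO and 350 reads (19.9 CPM) in HFD_CGP. The HFD_DMSO library stood apart, while the ND and HFD_CGP libraries were at nearly the same level. Slc39a7 fell by 1.48 on the log2 scale in HFD_DMSO vs ND (-1.86 to -1.11), with an adjusted p of 0.00816 in the authors' deposited table. It rose by 1.44 in HFD_CGP vs HFD_DMSO (1.08 to 1.82), with an adjusted p of 0.029 in the authors' deposited table. Both comparisons share the HFD_DMSO library, so a single low value there enters both. HFD_CGP over ND was 0.05 (-0.17 to 0.27). With 57.5% GC the gene lies in a bin whose median was 0.67 in HFD_DMSO vs ND, and its GC-corrected value was -2.14. The near equality of HFD_CGP and ND depends on this correction, which gave -0.65 with an adjusted p of 0.383 from edgeR's likelihood-ratio test. In the GENCODE M21 annotation 80.7% of its exonic bases are shared with Gm20427, a transcript on the same strand that had 17, 16 and 50 reads, so reads could be assigned to either, and the value of each is uncertain.

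Slc39a6 and Slc39a14 did not pass in any comparison. Slc39a6 (ENSMUSG00000024270, chromosome 18, 24579881 to 24603817, minus strand) encodes ZIP6, a zinc importer of the plasma membrane. It had 639, 267 and 576 reads in ND, HFD_DMSO and HFD_CGP. Its log2 fold change was -0.65 in the diet comparison, 0.34 in the inhibitor comparison and -0.22 between HFD_CGP and ND. Slc39a14 (ENSMUSG00000022094, chromosome 14, 70303469 to 70351425, minus strand) encodes ZIP14, which carries zinc, iron and manganese. It had 409, 264 and 501 reads, and log2 fold changes of -0.021, 0.16 and 0.23 in the same order of comparisons. Scaling by library totals without the insulin genes gave 0.024 for the first of these.

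The metallothionein transcripts did not pass in any comparison. Mt1 (ENSMUSG00000031765, chromosome 8, 94179082 to 94180327, plus strand) had 8888 reads (519 CPM) in ND, 4948 reads (304 CPM) in HFD_DMSO and 10215 reads (580 CPM) in HFD_CGP. Its log2 fold change was -0.23 (-0.28 to -0.18) in the diet comparison, with an adjusted p of 0.717 in the authors' deposited table. It was 0.28 in the inhibitor comparison and 0.13 between HFD_CGP and ND. With insulin reads left out of the totals, Mt1 stood at 613, 537 and 716 CPM. Mt1 gave 0.331 reads per Slc30a8 read in ND, 1.01 in HFD_DMSO and 0.913 in HFD_CGP. Mt2 (ENSMUSG00000031762, chromosome 8, 94172664 to 94173568, plus strand) had 20, 10 and 9 reads, with a log2 fold change of -0.39 (-1.65 to 0.77) in HFD_DMSO vs ND. A change of Mt2 was not detectable at this depth in that pair. There were 444 Mt1 reads per read counted for Mt2 in ND, 495 in HFD_DMSO and 1135 in HFD_CGP, and the Mt2 count carries the uncertainty of strand given after the sequences.

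The coding sequences of the pair are shown because close paralogs can exchange reads. They are from GENCODE M21 transcripts on GRCm38, 5′ to 3′, and capitals mark the bases that differ between them.
Mt1 coding sequence: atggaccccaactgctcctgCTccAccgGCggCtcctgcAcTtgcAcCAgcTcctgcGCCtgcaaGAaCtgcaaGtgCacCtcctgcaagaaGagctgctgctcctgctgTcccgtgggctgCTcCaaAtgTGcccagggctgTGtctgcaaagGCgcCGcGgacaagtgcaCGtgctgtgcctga
Mt2 coding sequence: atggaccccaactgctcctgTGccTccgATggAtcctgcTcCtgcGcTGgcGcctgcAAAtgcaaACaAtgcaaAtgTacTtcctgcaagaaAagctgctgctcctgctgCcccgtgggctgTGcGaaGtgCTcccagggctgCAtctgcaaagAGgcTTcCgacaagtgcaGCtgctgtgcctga
The sequences are 186 bases long each, differ at 38 positions (79.6% identity), and share no run longer than 20 bases. Of the exonic bases of Mt2, 73.5% lie opposite the antisense transcript Gm45774, which had 23, 35 and 77 reads. Since the use of strand in counting is not given in the sources used here, reads of Mt2 and Gm45774 cannot be told apart.

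Promoters of 6 of the 10 genes were found in the RefSeq table for GRCm38.p6: Mt1, Mt2, Slc30a1, Slc30a5, Slc30a7 and Slc39a7. The 4 below are shown because they hold the letters of zinc-linked motifs, while the promoters of Slc30a7 and Slc39a7 hold none of those searched. Each runs from 250 bases before to 50 bases after the annotated start, 5′ to 3′ on the gene's strand. Capitals mark the metal response element core in its forms TGCACNC and TGCGCNC on either strand and, in Slc30a5, also the zinc transcriptional regulatory element, a palindrome of CACTCC, 4 bases of any kind and GGAGTG.
Mt1 promoter, chr8:94178839-94179138, plus strand: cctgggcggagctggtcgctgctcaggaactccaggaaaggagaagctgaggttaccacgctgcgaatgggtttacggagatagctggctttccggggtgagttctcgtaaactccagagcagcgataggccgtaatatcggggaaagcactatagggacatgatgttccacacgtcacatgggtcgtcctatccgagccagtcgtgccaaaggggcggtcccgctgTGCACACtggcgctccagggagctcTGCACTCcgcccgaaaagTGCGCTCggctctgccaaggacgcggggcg
Mt2 promoter, chr8:94172368-94172667, plus strand: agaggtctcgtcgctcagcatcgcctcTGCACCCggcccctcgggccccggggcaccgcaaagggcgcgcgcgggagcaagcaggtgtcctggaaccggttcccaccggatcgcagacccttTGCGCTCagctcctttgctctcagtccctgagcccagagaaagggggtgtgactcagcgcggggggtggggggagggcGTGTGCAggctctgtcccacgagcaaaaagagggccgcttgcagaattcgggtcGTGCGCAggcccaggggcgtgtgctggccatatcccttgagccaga
Slc30a1 promoter, chr1:191906531-191906830, plus strand: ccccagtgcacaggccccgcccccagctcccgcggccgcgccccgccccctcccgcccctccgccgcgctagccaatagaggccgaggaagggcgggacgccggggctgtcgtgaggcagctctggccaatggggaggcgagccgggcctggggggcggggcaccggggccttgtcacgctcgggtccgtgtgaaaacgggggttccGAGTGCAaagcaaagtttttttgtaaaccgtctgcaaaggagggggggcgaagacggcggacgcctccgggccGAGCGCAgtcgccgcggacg
Slc30a5 promoter, chr13:100833378-100833677, minus strand: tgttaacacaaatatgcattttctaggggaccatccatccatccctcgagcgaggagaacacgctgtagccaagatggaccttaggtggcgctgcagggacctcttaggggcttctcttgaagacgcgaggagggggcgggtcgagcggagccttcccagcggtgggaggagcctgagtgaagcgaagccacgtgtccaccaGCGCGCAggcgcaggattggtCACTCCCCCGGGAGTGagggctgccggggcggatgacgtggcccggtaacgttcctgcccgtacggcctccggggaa
The core was found 3 times in the Mt1 promoter, 4 times in Mt2, 2 times in Slc30a1 and 1 time in Slc30a5. Of 32851 mouse promoters of the same length, 25.7% hold at least 1 core and 0.517% hold 4 or more. Of the promoters shown, only that of Mt2 reaches 4, and shares for at least 2 or 3 cores were not counted. The palindrome was looked for after the Slc30a5 sequence had been seen, and 2 of the 32851 promoters hold it. A match of letters is a description and does not show that a factor binds there.

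**Figure D4:**
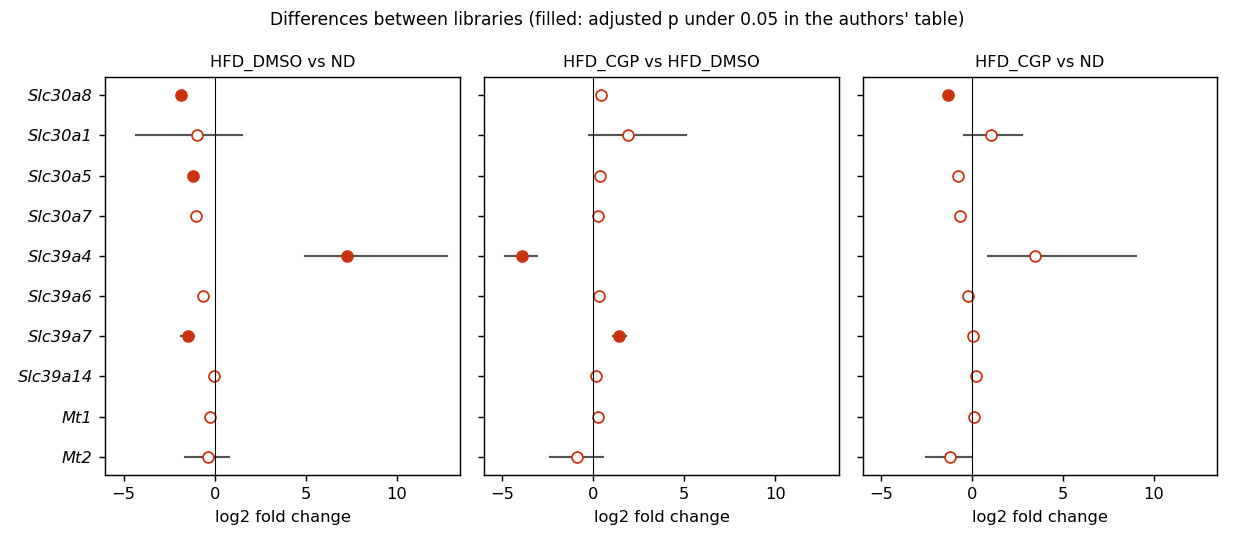
Log2 fold change of the 10 genes in each pair of libraries, with bars for the 95% counting interval and filled points for genes that passed in the authors' deposited table. Slc39a4 (7.27 and -3.91) and Slc39a7 (-1.48 and 1.44) are filled in both the diet and the inhibitor comparison, which share the HFD_DMSO library.

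The inhibitor comparison asks what CGP 57380 changed under the high-fat diet. Of the 10 genes Slc39a7 rose, Slc39a4 fell and 8 did not pass, beside 1.4% of the 22208 genes tested that were called higher and 4.95% called lower. The median log2 fold change of the set was 0.31, beside 0.044 for all genes tested. In HFD_CGP vs ND, Slc30a8 fell and 9 genes did not pass, where 4.57% of 23063 genes were called higher and 4.36% lower. The median of the set was -0.083 there, beside -0.058 for all genes tested. By a rule of at least 2-fold with a counting interval that excludes 0, Slc39a4 was higher, beside 10.6% of all genes. Slc30a8 and Mt2 were lower by this rule, beside 10.4%. The lower Mt2 rests on 20 reads in ND and 9 in HFD_CGP. Its reads cannot be told apart from those of the antisense transcript Gm45774. That transcript rose by 1.67 on the log2 scale in the same pair (adjusted p = 0.0331 in the authors' deposited table).

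The other zinc genes were taken from a list of 21, which holds the remaining Slc30a, Slc39a and metallothionein genes, the zinc receptor gene Gpr39, the zinc transporter gene Tmem163 and Mtf1, the gene of the factor that drives metallothioneins. In HFD_DMSO vs ND, 17 of them were in the table, of which 3 rose, 2 fell and 12 did not pass. Over all genes tested in this pair, 12.6% were called higher and 13.2% lower. Mt3, a metallothionein best known from the brain, rose by 2.28 on the log2 scale, from 27 reads in ND to 86 in HFD_DMSO, with 62 in HFD_CGP. After the correction for GC content the rise of Mt3 was 1.40, with an adjusted p of 0.035 from edgeR's likelihood-ratio test. The zinc transporter genes Slc39a9 (2168, 689 and 1860 reads) and Slc39a10 (490, 116 and 212 reads) fell by 1.04 and 1.47 in that comparison, and neither passed after the correction for GC content. Slc39a2 and Slc39a8, chosen after their values were seen to complete the count, rose by 2.70 and 2.14 on the log2 scale. With library totals 5 of the 17 were called lower, beside 5677 of all 22899 genes. With totals without insulin 1 of the 17 was called lower, beside 2731 of all genes, since Slc39a9 no longer passed.

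In HFD_CGP vs HFD_DMSO, 2 of the 15 other zinc genes in the table fell and none rose. Over all genes, 4.95% were called lower and 1.4% higher. With library totals 3 of the 15 were called higher (Tmem163, Slc39a1 and Slc39a9), beside 3209 of all 22208 genes. Slc39a5, a zinc importer of the plasma membrane, fell by 2.06, with 117 reads in ND, 91 in HFD_DMSO and 37 in HFD_CGP. Acinar genes moved in the same comparison, where 9 of 10 fell, and 9 of 10 were also lower in HFD_CGP than in ND. In the diet comparison 7 of the 10 fell, while Slc39a5 stood at 0.25 on the log2 scale and did not pass. The part of acinar cells in the Slc39a5 values was not tested. Slc39a8 fell by 4.18, from 55 reads to 5. In HFD_CGP vs ND, 18 were in the table: Slc39a2 rose by 2.24, Slc39a5 and Slc39a10 fell by 1.72 and 1.27, and the rest did not pass. Over all genes of this pair, 4.57% were called higher and 4.36% lower. Slc39a10 no longer passed there after the correction for GC content (-0.81) or with totals without insulin (-1.18). Mtf1 had 567, 298 and 536 reads in ND, HFD_DMSO and HFD_CGP and did not pass in any comparison. Its log2 fold change was -0.32 in the diet comparison, 0.081 in the inhibitor comparison and -0.15 between HFD_CGP and ND. With a coefficient of variation of 0.4, the fall of Slc39a8 in the inhibitor comparison still passed and the other calls on these genes were lost. Slc30a2, Slc30a4 and Mt4 were looked for and not found among the 24119 genes of the deposited tables.

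**Figure D5:**
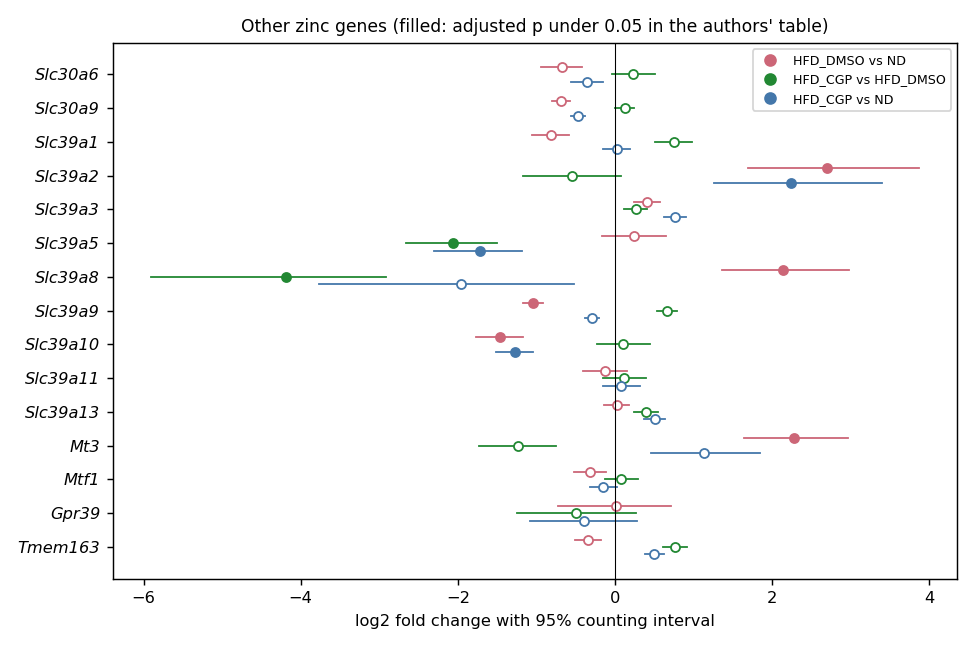
Log2 fold change of the 15 other zinc genes found in all 3 tables, by comparison, with bars for the 95% counting interval and filled points for genes that passed in the authors' deposited table. Slc39a2, Slc39a8 and Mt3 are higher in HFD_DMSO than in ND, and Slc39a5 and Slc39a8 are lower in HFD_CGP than in HFD_DMSO.

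The genes whose profile over the 3 libraries was most like that of Slc30a8 and of Mt1 were ranked among 9130 protein-coding genes with a mean of at least 10 CPM, by the Euclidean distance of centred log2(CPM + 0.5) values. For Slc30a8 the nearest 5 were Zfp37, Hace1, Slf1, Orc3 and Rnf2. Zfp37 lay at a distance of 0.0132, with 20.3 CPM in ND, 3.50 in HFD_DMSO and 7.83 in HFD_CGP. For Mt1 they were Aatk, Ywhab, Shpk, Uba1 and 2410002F23Rik, with Aatk at a distance of 0.00475. No such genes are given for Slc39a4, since its level from 1 read in ND lies below the added 0.5 CPM, which would set the distance. The distances describe these 3 libraries only.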

How the data were processed

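Per the labels' protocols, islet RNA was taken up in Trizol and 1 ug of it went into each TruSeq library. The choice of aligner, counter, genome build and strand setting is not given in the sources used here. The tool DESeq2 (version 1.10.1) is listed, per the submitters' processing notes. For each pair of groups the authors deposited 1 full table, with a signal column per group, a log2 fold change, and a p-value and adjusted p-value per gene. The signal values proved to be counts scaled per pair. Dividing by the value of 1 read gave whole reads, within 0.1, for 100% of values in each column, and tables that share a group gave the same reads for all genes. An edgeR exact test gave the deposited log2 and p values again (TMM factors, fixed dispersion 0.04, a coefficient of variation of 0.2 that was assumed, at least 2 reads over the pair), with 0 calls differing and the p within 1% of the deposited one for 97.3% of genes or more. No label or header records that test; it was inferred from the match. The design had assumed a DESeq2 comparison.

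Calls are the authors' deposited adjusted p under 0.05. Fold changes were recomputed with edgeR 4.0.16 in R 4.3.3, and counting intervals are exact conditional binomial intervals at 95%. A count of 0 allows up to 3 reads, or 0.175 (ND), 0.184 (HFD_DMSO) and 0.170 CPM (HFD_CGP). Intervals cover counting error only. Alternatives were library totals, totals without Ins1 and Ins2, DESeq2 size factors, dispersion 0.16, at least 20 reads over the pair, a pseudocount of 10, a GC correction with a likelihood-ratio test, a 2-fold rule and, added after the data had been seen, that test without GC correction. Scripts were tested on simulated data.

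Gene coordinates come from the deposited tables and count from 1; exons, GC content and coding sequences are from GENCODE M21 on GRCm38, and promoters from RefSeq on GRCm38.p6. All 10 members were to be named, and of the other zinc genes those called in any comparison with at least 100 normalized counts in a library, plus Mtf1, Slc30a2 and Slc39a5. The members and lists were chosen with earlier results of these data known. The 9 deposited lists of calls were not used.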

Additional observations from a re-analysis of the deposited data

How the results depend on the processing

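With 1 library per group no library could be left out. No paired analysis was possible because each group has a single library and the labels give no replicate numbers. In HFD_DMSO vs ND, 5 of the 10 genes were lower with library totals and 0 with a dispersion of 0.16, where the rise of Slc39a4 still passed. Library totals moved the median of the set to -1.32 in HFD_DMSO vs ND and to 0.96 in HFD_CGP vs HFD_DMSO. In HFD_DMSO vs ND the median was smaller in size after the GC correction (-0.37) and with a pseudocount of 10 (-0.44). With a dispersion of 0.16, 0 of the genes were higher in HFD_CGP vs HFD_DMSO and 0 lower in HFD_CGP vs ND. In HFD_CGP vs ND, 0 were lower after the GC correction and 2 (Mt2 and Slc30a8) under the 2-fold rule. In that pair 1 (Slc39a4) was higher under the 2-fold rule and 1 under the likelihood-ratio test. The lower Mt2 is uncertain, since its reads cannot be told apart from those of Gm45774. Signs turned for Slc39a14 in HFD_DMSO vs ND (0.024 with totals without insulin) and, after the GC correction in HFD_CGP vs ND, for Slc39a7 (-0.65), Slc39a14 (-0.12) and Mt1 (-0.21), none of which passed. The cause was not tested. Over all genes, calls higher and lower in HFD_DMSO vs ND were 2888 and 3023, against 1600 and 5677 with library totals, 3092 and 1748 with the GC correction, and 386 and 140 with a dispersion of 0.16. In HFD_CGP vs HFD_DMSO they were 311 and 1100, against 3209 and 679, 391 and 1813, and 9 and 162. In HFD_CGP vs ND they were 1054 and 1006, against 1133 and 970, 608 and 631, and 27 and 54. Depth limits Slc30a1, Mt2 and, in ND and HFD_CGP, Slc39a4, which had 20 reads or fewer.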
